A study of Mus musculus with 4 samples.

Results

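Natural killer (NK) cell effector genes and the T-box transcription factors of NK cells were followed in sorted mouse bone marrow. The set holds 10 genes, namely *Nkg7*, *Ccl4*, *Ccl5*, *Gzma*, *Gzmb*, *Prf1*, *Ctsw*, *Il2rb*, *Tbx21* and *Eomes*, and a probe was taken for a gene where its gene identifier in the signal table matched the symbol, ignoring case. Of these, 9 had a row, with 11 probes among the 25697 probes of 17916 genes. *Gzma* had no row, so its RNA level was not analysed here. RNA of 4 samples of C57BL6/J mice was measured, 1 array each: B220+ CD43- cells of *Btg1*-/-;*Btg2*-/- double knockout mice (dKO), B220+ CD43- cells of wild type mice (WT), B220+ CD43+ cells of dKO mice and B220+ CD43+ cells of WT mice. The CD43- gate takes Hardy fractions D to F, which hold later B-lineage stages, and the CD43+ gate takes fractions A to C, which hold earlier ones. BTG1 and BTG2 are related antiproliferative proteins, and the title of the study places them in B-lineage commitment. The labels give no age, sex or number of animals per sample, and do not say whether animals were pooled.

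NK cells kill by releasing granules that hold perforin, which forms pores, and granzymes, which are serine proteases that enter the target cell through them. NK cells also secrete the chemokines CCL4 and CCL5, take up IL-2 and IL-15 signals through the receptor beta chain encoded by *Il2rb*, and depend on the T-box factors T-bet (*Tbx21*) and EOMES for their maturation. Cytotoxic T cells share most of these genes. In marrow, the B220+ CD43+ gate is known to take in NK-lineage cells and plasmacytoid dendritic cells beside early B cells.

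The genes were detected in CD43+ cells and were at or near background in CD43- cells of both genotypes. The exceptions were a *Prf1* probe, which was bright on all 4 arrays, and *Gzmb*, which was above background on none. *Il2rb*, *Tbx21* and *Eomes* were dim even in CD43+ cells, with WT signals of 212.0, 239.4 and 242.7. In CD43+ cells, 8 of 8 measurable genes had a higher normalized value in dKO than in WT, by 0.05 to 1.10 on the log2 scale, and *Eomes* differed most. With 1 array a group these genotype differences have no test. In bulk samples such as these, fewer cells of a type and less RNA per cell cannot be told apart. The bead standard error (SE) given with each value covers only the spread of beads of 1 probe on 1 array, not the spread between animals or sorts.

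The mean probe signal was 648.1 on the dKO CD43- array, 555.2 on the WT CD43- array, 662.1 on the dKO CD43+ array and 550.7 on the WT CD43+ array, so both dKO arrays were brighter, and in the raw signal the genotype cannot be told apart from how bright the array was. Between 39.5% and 43.3% of probes were detected, that is, had a detection p under 0.01, the share of negative controls at or above the signal. Differences below are therefore of quantile-normalized, background-corrected log2 values, whereas signals are bead means as deposited. Of the 9 genes with a row, 5 were detected on the dKO CD43- array, 5 on the WT CD43- array, 8 on the dKO CD43+ array and 8 on the WT CD43+ array. Of the markers that define the labelled lineage, *Cd79b* was detected on all 4 arrays, whereas *Pax5* was detected in CD43- cells and on neither CD43+ array.

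Among the granule genes, *Nkg7*, which encodes a membrane protein of cytotoxic granules, had a signal of 189.9 in dKO and 200.9 in WT CD43- cells, against 4751 in dKO and 2756 in WT CD43+ cells. Its bead SE was 6.94 and 8.18 in the CD43- samples of dKO and WT, and 149 and 99.8 in their CD43+ samples. The CD43+ samples were both far above the CD43- samples. *Ctsw*, encoding cathepsin W, a cysteine protease of NK and cytotoxic T cells, gave 191.3 in dKO and 179.6 in WT CD43- cells, against 2841 in dKO and 2084 in WT CD43+ cells. After normalization the 2 genotypes stood within the bead error of each other for *Ctsw* in both fractions.

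*Prf1*, which encodes perforin, was measured by a pair of probes that did not give the same picture. The brighter probe gave 1706 in dKO and 896.9 in WT CD43- cells, against 2465 in dKO and 1517 in WT CD43+ cells, and was detected on all 4 arrays. The dimmer probe gave 159.6 in dKO and 154.9 in WT CD43- cells, neither above background, against 301.6 in dKO and 228.3 in WT CD43+ cells, both detected. The granule protease gene *Gzmb* gave 145.3 in dKO and 117.8 in WT CD43- cells, and 141.3 in dKO and 131.7 in WT CD43+ cells. Its detection p ran from 0.451 to 0.997, so no fold is given for it, and its level was not detectable on these arrays.

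The chemokine genes had the same pattern as *Nkg7* and *Ctsw*. *Ccl5* gave 266.6 in dKO and 257.9 in WT CD43- cells, against 10699 in dKO and 5506 in WT CD43+ cells, with bead SEs of 374 and 148 in the CD43+ samples of dKO and WT. The brighter *Ccl4* probe gave 195.0 in dKO and 168.1 in WT CD43- cells, against 3322 in dKO and 2070 in WT CD43+ cells. The dimmer *Ccl4* probe was detected in CD43+ cells only, with 597.7 in dKO and 380.7 in WT, and gave 148.7 in dKO and 143.3 in WT CD43- cells. All 3 chemokine probes kept both CD43+ samples above both CD43- samples.

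The receptor and transcription factor genes were detected in CD43+ cells only. *Il2rb* gave 166.4 in dKO and 132.2 in WT CD43- cells, neither detected, against 323.4 ± 14.8 in dKO and 212.0 ± 9.61 in WT CD43+ cells (± bead SE). *Tbx21* gave 143.7 in dKO and 140.9 in WT CD43- cells, neither detected, against 392.1 ± 21.3 in dKO and 239.4 ± 10.4 in WT CD43+ cells. *Eomes* gave 148.0 in dKO and 156.3 in WT CD43- cells, again neither detected, against 451.5 ± 19.5 in dKO and 242.7 ± 8.33 in WT CD43+ cells. For each of these 3 genes the dKO CD43+ sample was the highest of the 4, the WT CD43+ sample came next, and the CD43- samples have no order because both were at background. The order dKO CD43+, then WT CD43+, held for the normalized values of the other measured genes too, although for *Ctsw* the 2 samples did not differ beyond the bead error.

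**Figure D1:**
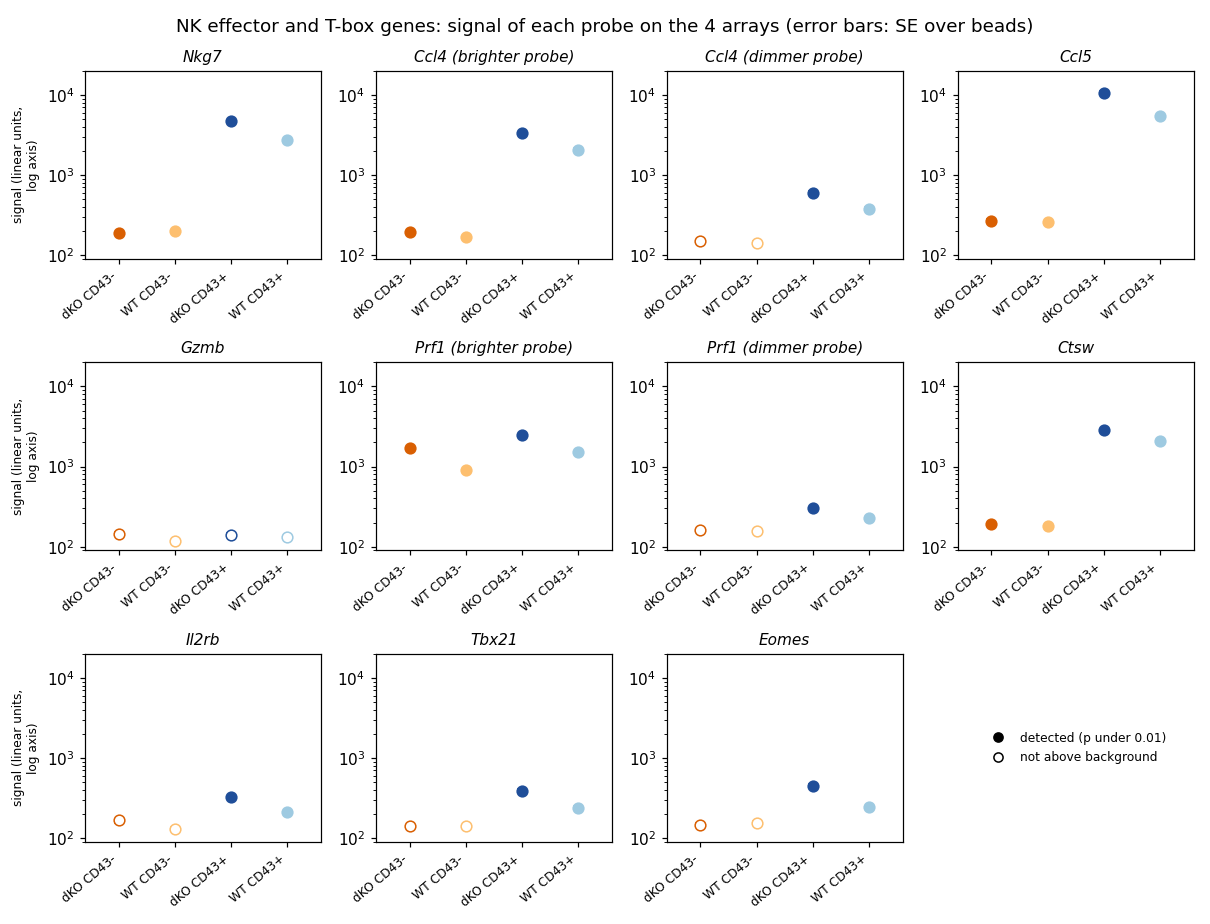
Bead-mean signal (log scale, scanner units) of each probe of the NK effector and T-box genes on the 4 arrays, with bars for the SE over beads and open symbols for probes not detected. Nkg7, Ccl4 (brighter probe), Ccl5 and Ctsw lie between 168.1 and 266.6 in CD43- cells and between 2070 and 10699 in CD43+ cells, the brighter Prf1 probe is bright on all 4 arrays, and Gzmb is detected on none.

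The promoters of 6 of the 10 genes matched a RefSeq table of the assembly GRCm38.p6, and 4 of them are shown because they belong to the granule genes *Nkg7* and *Prf1* and to both T-box genes, which are the DNA-binding members of the set. Each run is the 250 bases before the start of the gene, 5′ to 3′ on the strand of the gene. Capitals mark a match, on either strand, to the T-box core TCACAC, the RUNX core TGTGGT or the ETS core GGAAGT, 3 families of factors that act in cytotoxic lymphocytes. The array files name no genome build, so the coordinates are those of the table.
*Nkg7* promoter, chr7:43436888-43437137, + strand: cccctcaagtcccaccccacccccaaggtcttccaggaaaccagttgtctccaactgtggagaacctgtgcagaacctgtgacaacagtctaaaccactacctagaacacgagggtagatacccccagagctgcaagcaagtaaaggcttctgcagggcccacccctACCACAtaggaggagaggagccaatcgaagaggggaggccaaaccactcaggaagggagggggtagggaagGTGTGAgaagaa
*Prf1* promoter, chr10:61297586-61297835, + strand: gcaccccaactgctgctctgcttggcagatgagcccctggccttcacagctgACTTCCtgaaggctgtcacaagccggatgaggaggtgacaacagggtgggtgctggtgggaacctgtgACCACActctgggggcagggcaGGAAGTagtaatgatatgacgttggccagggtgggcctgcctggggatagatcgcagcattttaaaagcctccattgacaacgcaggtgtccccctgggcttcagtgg
*Tbx21* promoter, chr11:97115332-97115581, - strand: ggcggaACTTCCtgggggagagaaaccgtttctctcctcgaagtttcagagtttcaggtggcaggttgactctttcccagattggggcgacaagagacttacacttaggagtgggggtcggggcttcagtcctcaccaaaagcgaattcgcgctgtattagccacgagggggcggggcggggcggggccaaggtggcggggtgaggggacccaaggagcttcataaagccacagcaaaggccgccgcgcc
*Eomes* promoter, chr9:118477939-118478188, + strand: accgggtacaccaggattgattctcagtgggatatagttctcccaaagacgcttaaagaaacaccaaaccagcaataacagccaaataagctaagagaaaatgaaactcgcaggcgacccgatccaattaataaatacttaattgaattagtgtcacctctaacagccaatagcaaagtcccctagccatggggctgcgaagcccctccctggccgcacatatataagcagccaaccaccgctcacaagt

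The *Nkg7* window held the T-box core on the opposite strand 12 bases before the start, and the RUNX core on the opposite strand 83 bases before it, counted to the first base of the match. The *Prf1* window held the RUNX core 130 bases and the ETS core 198 and 108 bases before the start. The *Tbx21* window held the ETS core 244 bases before the start, and the *Eomes* window held none of the 3. Of the other matched windows, that of *Gzmb* held the T-box core and a pair of RUNX cores, and that of *Gzma* a RUNX core. Over all 32851 promoter windows of the same length, 12.3% held the T-box core, 14.0% the RUNX core and 19.7% the ETS core. These matches are descriptions of the letters in the windows, and binding was not measured.

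The 4 arrays allow the 2 fractions to be compared within each genotype. In dKO, 7 of the 8 measurable genes were at least 2-fold lower in CD43- than in CD43+ cells, where 10.6% of all genes were; in WT, 7 of 8 were, where 11.2% of all genes were. *Il2rb*, *Tbx21* and *Eomes* entered these counts through detection in CD43+ cells alone and could only be lower in CD43- cells. With undetected values placed at their bound, 7 genes in dKO and 6 in WT were past 2-fold, against 8.04% and 8.55% of all genes. The median difference was -4.36 in dKO and -3.73 in WT on the log2 scale, or -3.84 and -3.23 at the bounds, against 0.05 and 0.06 over all genes.

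Of the 5 genes detected on every array, 4 had large fold differences, and *Prf1* is given further on. *Ccl5* was 72.9-fold lower in CD43- than in CD43+ cells in dKO, and 39.1-fold lower in WT. *Nkg7* was 67.5-fold lower in CD43- than in CD43+ cells in dKO, and 33.9-fold lower in WT. *Ccl4* (brighter probe) was 42.9-fold and *Ctsw* 38.9-fold lower in CD43- cells in dKO, against 46.3-fold and 35.7-fold in WT. For *Ccl4* and *Ctsw* the 2 genotypes therefore had similar fraction differences. For *Ccl5* and *Nkg7* the fraction difference was wider in dKO, a contrast that 1 array a group leaves without a test. The dimmer *Ccl4* probe, at background in CD43- cells, was at least 7.72-fold lower there in dKO and 5.93-fold in WT. The size of these folds depended on background correction. Without it the log2 differences in dKO were -4.48 for *Nkg7*, -3.92 for *Ccl4*, -3.73 for *Ctsw* and -5.24 for *Ccl5*. With it they were -6.08, -5.42, -5.28 and -6.19, and the WT differences shrank likewise without it.

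The genes not detected in CD43- cells have a bound in place of a fold, for which the CD43- value was raised, where lower, to that of the dimmest probe detected on that array. *Eomes* was at least 5.31-fold lower in CD43- than in CD43+ cells in dKO, and at least 2.59-fold lower in WT. *Tbx21* was at least 4.34-fold lower in CD43- cells in dKO, and at least 2.51-fold lower in WT. *Il2rb* was at least 3.24-fold lower in CD43- cells in dKO, and at least 1.89-fold lower in WT. The bounds move with the CD43+ level, which was higher in dKO for all 3.

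*Prf1* was the exception. Its brighter probe was 1.42-fold lower in CD43- than in CD43+ cells in dKO, and 1.84-fold lower in WT. Its dimmer probe was at least 2.88-fold lower in CD43- cells in dKO, and at least 2.26-fold lower in WT. In the authors' deposited RMA values, which give 1 value per gene, *Prf1* differed by -1.87 in dKO and -1.77 in WT on the log2 scale. Whether both probes read the same transcript was not tested.

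A fit over all 4 arrays with genotype as a block (limma, Benjamini-Hochberg adjustment over 8962 genes) tested the fraction difference, with 1 residual degree of freedom. At an adjusted p under 0.05, 12.9% of genes were lower and 10.2% higher in CD43- cells. Of the 5 NK effector genes detected on every array, 4 were lower. *Nkg7* fell by 5.58 in CD43- relative to CD43+ cells on the log2 scale (SE 0.28, limma adjusted p = 0.00221), *Ccl5* fell by 5.74 (SE 0.26, adjusted p = 0.00216), *Ccl4* fell by 5.48 (SE 0.16, adjusted p = 0.00216) and *Ctsw* fell by 5.22 (SE 0.16, adjusted p = 0.00216). The brighter *Prf1* probe differed by -0.69 (SE 0.18, limma adjusted p = 0.0556) and did not pass. *Tbx21* (limma adjusted p = 0.00496), *Eomes* (adjusted p = 0.0145), *Il2rb* (adjusted p = 0.00338) and the dimmer probes of *Prf1* (adjusted p = 0.00538) and *Ccl4* (adjusted p = 0.00217) also passed. These entered the fit through CD43+ cells alone, with CD43- values at background, so only the bounds above give the size of their difference and their calls are no independent support. The spread behind the p-values comes from how far the fraction difference varied between the genotypes and, through the limma prior, from the spread of other genes; it does not cover variation between animals of 1 group.

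**Figure D2:**
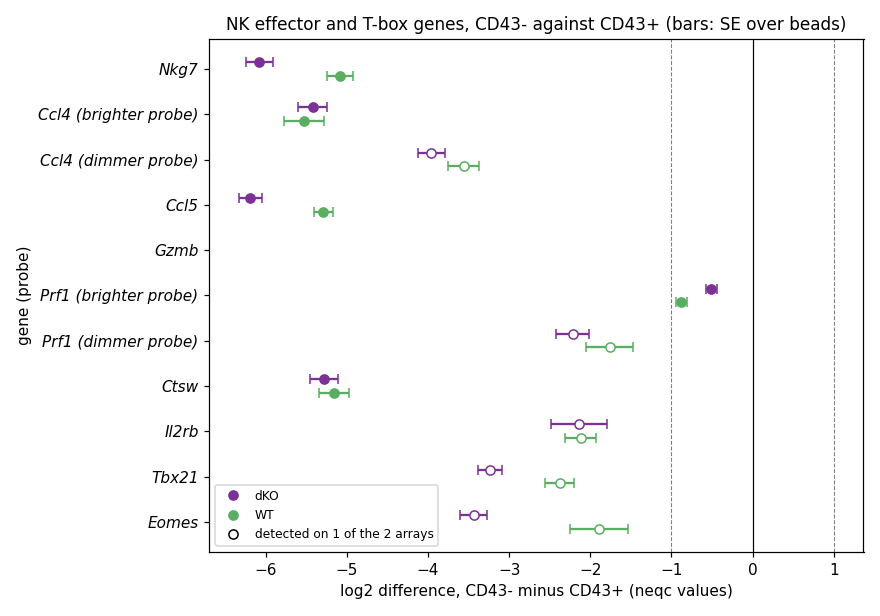
Log2 difference of normalized values, CD43- minus CD43+, for each probe in dKO and in WT, with bars for the SE over beads and dashed lines at 2-fold; open symbols were detected on the CD43+ array only, so their true difference has only a bound. All probes but the brighter Prf1 probe lie left of the 2-fold line, and Gzmb has no point because it was not detected.

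The comparison of dKO with WT within a fraction asks how loss of both *Btg* genes bears on it. In CD43+ cells, 8 of 8 measurable genes lay above 0 in dKO against WT, where 54.2% of all genes did. *Eomes* was the only gene of the set at least 2-fold higher, by 2.15-fold, where 1.74% of all 8631 genes were. Over all genes, 150 passed 2-fold upward and 173 downward in these values, against 400 and 118 with median scaling, which moved the median of all genes to 0.32. The median of the 8 differences was 0.53, against 0.04 over all genes.

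The size differed among the genes. Of the T-box and receptor genes, *Eomes* stood at 1.10 (bead SE 0.14), *Tbx21* at 0.85 (bead SE 0.18) and *Il2rb* at 0.84 (bead SE 0.20) on the log2 scale. Without background correction these 3 stood at 0.65, 0.48 and 0.42, so that their order against *Ccl5*, at 0.64 in that setting, depends on this step. Of the chemokine genes, *Ccl5* stood at 0.65 (bead SE 0.08) and *Ccl4* at 0.28 (bead SE 0.09) by its brighter probe and 0.45 (bead SE 0.11) by its dimmer one. Of the granule genes, *Nkg7* stood at 0.40 (bead SE 0.08), *Prf1* at 0.31 (bead SE 0.07) and 0.42 (bead SE 0.16) by its brighter and dimmer probes, and *Ctsw* at 0.05 (bead SE 0.07). *Ctsw* did not differ beyond its bead error, although its raw signal was 2841 in dKO and 2084 in WT.

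In CD43- cells the same contrast had no common direction. Of the 5 genes detected there, 2 lay above 0 and 3 below, where 50.6% of all genes lay above 0. None reached 2-fold, a size passed upward by 3.65% and downward by 2.59% of all genes, and the median was -0.08 against 0.01 over all genes. *Prf1* (brighter probe) was higher in dKO by 0.69 (bead SE 0.07) and *Ccl4* (brighter probe) by 0.39 (bead SE 0.29). The dimmer probes of both genes were not detected in CD43- cells and give no difference. *Prf1* stood at 0.32 with the mean of its probes and at 0.30 in the authors' RMA values. *Nkg7* was lower in dKO, with a difference of -0.59 (bead SE 0.22), as was *Ccl5*, with -0.25 (bead SE 0.17), and *Ctsw* was at -0.08 (bead SE 0.24). Of these, the brighter *Prf1* probe and *Nkg7* lay beyond 2 bead SEs from 0.

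**Figure D3:**
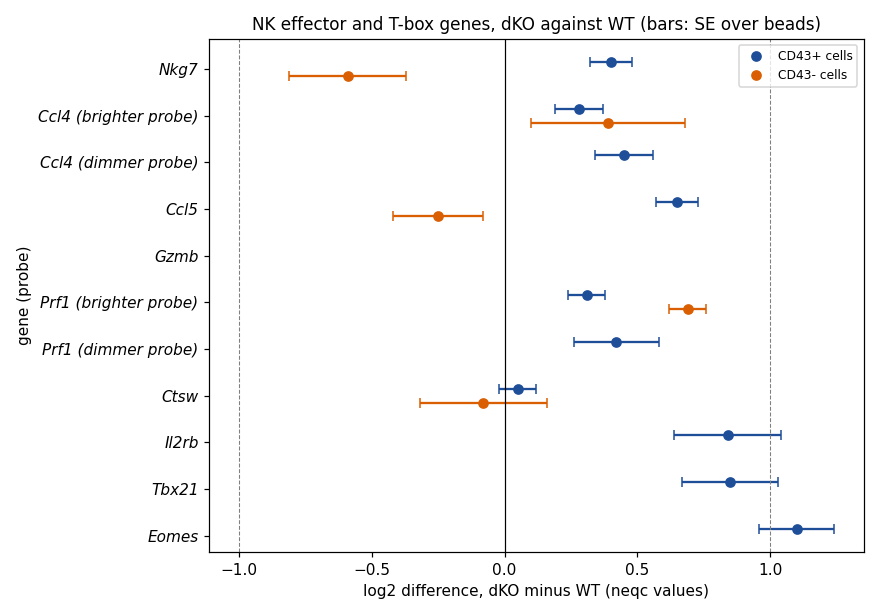
Log2 difference of normalized values, dKO minus WT, for each probe in CD43+ and in CD43- cells, with bars for the SE over beads and dashed lines at 2-fold; a point is drawn where the probe was detected on at least 1 of its arrays. All CD43+ points lie above 0, from 0.05 for Ctsw to 1.10 for Eomes, whereas Nkg7 and Ccl5 lie below 0 in CD43- cells.

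The genotype difference over both fractions, fitted with fraction as a block, was called for none of the 8 genes at a limma adjusted p under 0.05 (adjusted p 0.171 to 0.97). Of all genes, 0.0223% were called higher and 0 lower, and 17.8% had an unadjusted p under 0.05. The largest effect among the set was that of *Il2rb*, 0.83 on the log2 scale (SE 0.16, limma adjusted p = 0.171, unadjusted p 0.00396), and its CD43- values were at background. The brighter *Prf1* probe was higher in dKO in 2 of 2 fractions, by 0.50 on average (SE 0.18, limma adjusted p = 0.267), whereas the dimmer one differed by 0.18 (SE 0.19, adjusted p = 0.626).

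Genes around the set were taken from lists of the same pathways. Calls between fractions in these lists are to be read against 12.9% of all genes lower and 10.2% higher in CD43- cells, and a gene detected in 1 fraction alone is given by its bound. Such a gene, here and in the marker lists, could only be called higher in the fraction where it was detected. Its call is no independent support. Counts above 0 in dKO against WT, here and in the marker lists further on, are to be read against all genes. Of these, 54.2% lay above 0 in CD43+ and 50.6% in CD43- cells. In every list, a gene detected in 1 genotype alone could only lie on the side of that genotype. Of 19 granule and killing partners on the array, 12 were measurable in CD43+ cells and 10 lay above 0 in dKO against WT, with a median of 0.33. *Cst7*, which encodes an inhibitor of granule cathepsins, stood at 0.81, the granzyme gene *Gzmm* at 0.59 and the death ligand gene *Fasl* at 0.54. Against CD43+ cells, 4 of 13 tested partners were called lower in CD43- cells, 1 of them detected there. That was *Rab27a*, whose product docks granules (fell by 1.81, limma adjusted p = 0.00466). The others were at background in CD43- cells: *Fasl* was at least 3.95-fold lower in dKO and 2.84-fold in WT (limma adjusted p = 0.00345), *Cst7* at least 3.73-fold and 2.22-fold (adjusted p = 0.0084), and the death ligand gene *Tnfsf10* at least 1.33-fold and 1.06-fold (adjusted p = 0.00955). *Gzmd*, at background in CD43+ cells, was at least 1.41-fold higher in CD43- cells in dKO and 1.44-fold in WT (limma adjusted p = 0.0136).

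Cytokine and chemokine genes did not all lie on the side of *Ccl4* and *Ccl5*. Of 10 measurable in CD43+ cells, 4 lay above 0 in dKO against WT, with a median of -0.26. *Ccl3*, another chemokine gene, gave 523.9 in dKO and 593.3 in WT and differed by -0.69, whereas the chemokine receptor gene *Cx3cr1* differed by 1.30 and the chemokine gene *Ccl9* by -1.49. Against CD43+ cells, 8 of 10 were called lower in CD43- cells and none higher, and 6 of the 8 were at background on both CD43- arrays. The chemokine gene *Xcl1* was among these, at least 22.2-fold lower in dKO and 19.4-fold in WT (limma adjusted p = 0.00216). The receptor gene *Cxcr3* was 20.0-fold lower in dKO and, not detected in WT CD43- cells, at least 25.3-fold lower in WT (limma adjusted p = 0.00307).

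The IL-2, IL-15, IL-12 and IL-18 receptor genes and their kinases had 8 of 11 measurable genes above 0 in CD43+ cells of dKO against WT, with a median of 0.39. Only 9 of the 11 were detected in WT CD43+ cells, and the rest, detected in dKO alone, could only lie above 0. *Jak1*, a kinase that acts beneath the IL-2 and IL-15 receptors, stood at 0.92, *Il18r1* at 0.82 and *Stat5a* at 0.67. *Il12rb2* was detected in dKO alone and was at least 1.11-fold higher. In CD43- against CD43+ cells 3 of 13 were called lower and 3 higher. *Stat4* fell by 0.92 (limma adjusted p = 0.0214). At background in CD43- cells, *Il18r1* was at least 11.9-fold lower in dKO and 7.05-fold in WT (limma adjusted p = 0.00216), and *Il18rap* at least 1.04-fold and 1.13-fold (adjusted p = 0.0145). *Il2ra*, whose product marks pre-B cells, was 11.5-fold higher in CD43- cells in dKO and, not detected in WT CD43+ cells, at least 11.2-fold higher in WT (limma adjusted p = 0.00216). On the log2 scale *Il15* rose by 0.95 (adjusted p = 0.0401) and *Il2rg*, the shared receptor chain gene, by 0.75 (adjusted p = 0.0331).

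NK and innate lymphoid transcription factor genes had 7 of 7 measurable genes above 0 in CD43+ cells of dKO against WT, with a median of 0.70. Only 5 of the 7 were detected in WT CD43+ cells, and the rest, detected in dKO alone, could only lie above 0. *Gata3* stood at 0.91, *Tcf7* at 0.90, *Zeb2* at 0.86 and *Id2* at 0.70, factors known from lymphocyte development. *Gata3* was dim in WT CD43+ cells, with a signal of 171.9. Without background correction the list median was 0.47. In CD43- against CD43+ cells *Ets1* rose by 0.74 (limma adjusted p = 0.0354) and 3 of 7 were called lower, of which *Id2* was detected on every array and fell by 2.44 (adjusted p = 0.0214). At background in CD43- cells, *Tcf7* was at least 3.65-fold lower in dKO and 2.05-fold in WT (limma adjusted p = 0.00345), and *Gata3* at least 1.78-fold lower in dKO, with no bound in WT (adjusted p = 0.0217).

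NK receptor and adaptor genes, which were not members of the set, mostly lay on the same side as its genes. Of 24 measurable in CD43+ cells, 22 lay above 0 in dKO against WT, where 54.2% of all genes did, with a median of 0.45. Of the 24, 22 were detected in WT CD43+ cells, and those detected in dKO alone could only lie above 0. The summed normalized values of the list were 29348 in dKO and 23540 in WT. In CD43- cells the sums were 3269 in dKO and 2151 in WT, and 22 of 24 genes were called lower than in CD43+ cells, 15 of them at background on both CD43- arrays. *Klre1* was at least 36.4-fold lower in dKO, where it was not detected in CD43- cells, and 17.4-fold lower in WT (limma adjusted p = 0.00564). *Klra4* was likewise at least 51.0-fold lower in dKO and 17.0-fold lower in WT (limma adjusted p = 0.00504). Between the genotypes in CD43- cells, 5 of 8 measurable receptor genes lay above 0 and 3 below, where 50.6% of all genes lay above 0. *Klrd1*, which encodes CD94, gave 647.7 in dKO and 231.0 in WT CD43- cells, whereas *Klre1* gave 150.8, not detected, in dKO and 181.5 in WT. *Cd160* was higher in dKO CD43+ cells by 1.09 and *Cd244a* lower, at -1.03.

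Markers of other cells that the gate could hold also differed between the arrays. T-cell markers had 9 of 11 measurable genes above 0 in CD43+ cells of dKO against WT, where 54.2% of all genes did. Their median was 0.33, with sums of 16642 in dKO and 12566 in WT. *Cd6* stood at 1.45, *Cd3d* at 0.79, *Cd27* at 0.76, *Cd3g* at 0.75, *Cd3e* at 0.19 and *Cd8b1* at 0.15. The 2 genes below 0 were *Cd4* at -0.69 and *Lat* at -0.07. In CD43- cells the T-cell sums were 6556 in dKO and 4612 in WT. *Il7r* was the brightest gene of the list on every array, so it weighs most in these sums. Its CD43- signals were 5519 in dKO and 3275 in WT, and it differed by 0.03 between the fractions. *Cd3d*, *Cd3e* and *Cd3g* were not detected in CD43- cells. Of the list, 10 of 11 were called lower than in CD43+ cells, 6 of them at background on both CD43- arrays. *Cd8a* was not detected on any array, whereas *Cd8b1* was detected on all 4. *Cd8b1* gave 507.2 in dKO and 185.7 in WT CD43- cells, against 4144 in dKO and 2826 in WT CD43+ cells. Plasmacytoid dendritic cell markers had 7 of 11 above 0 in CD43+ cells, with sums of 92014 in dKO and 77534 in WT, and a median of 0.21. In CD43- cells their sums were 31573 in dKO and 26472 in WT. The brightest gene there was *Ly6d*, with signals of 17336 in dKO and 14860 in WT, so it weighs most in these sums. Of 10 measurable in CD43- cells, 9 lay above 0 in dKO against WT, with a median of 0.64. *Siglech* gave 1176 in dKO and 228.4 in WT CD43- cells, or 7.72-fold. The fold was 5.35 for *Klk1*, 2.85 for *Cox6a2* and 2.71 for *Pacsin1*. Against CD43+ cells, 9 of 11 fell in CD43- cells, 8 of them detected on both CD43- arrays.

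B-lineage markers had 2 of 8 above 0 in CD43+ cells, with sums of 29411 in dKO and 32505 in WT and a median of -0.13 that turned to 0.07 with median scaling, and 7 of 9 rose in CD43- against CD43+ cells. Neutrophil markers had 0 of 10 above 0, with sums of 7293 in dKO and 33922 in WT and a median of -2.36. Macrophage markers had 3 of 7 above 0, a median of -0.28 and sums of 2808 in dKO and 6176 in WT. Of these, *Lyz2* had signals of 817.6 in dKO and 3098 in WT and differed by -2.56, and *Csf1r* differed by -0.84. On the other side, *Vcam1* and *C1qb* were detected in dKO alone and were at least 1.82-fold and 1.27-fold higher there. Of 6 basophil and mast cell markers, 0 were detected in dKO and 1 in WT CD43+ cells. The part of each of these in the values of the NK effector and T-box genes was not tested.

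**Figure D4:**
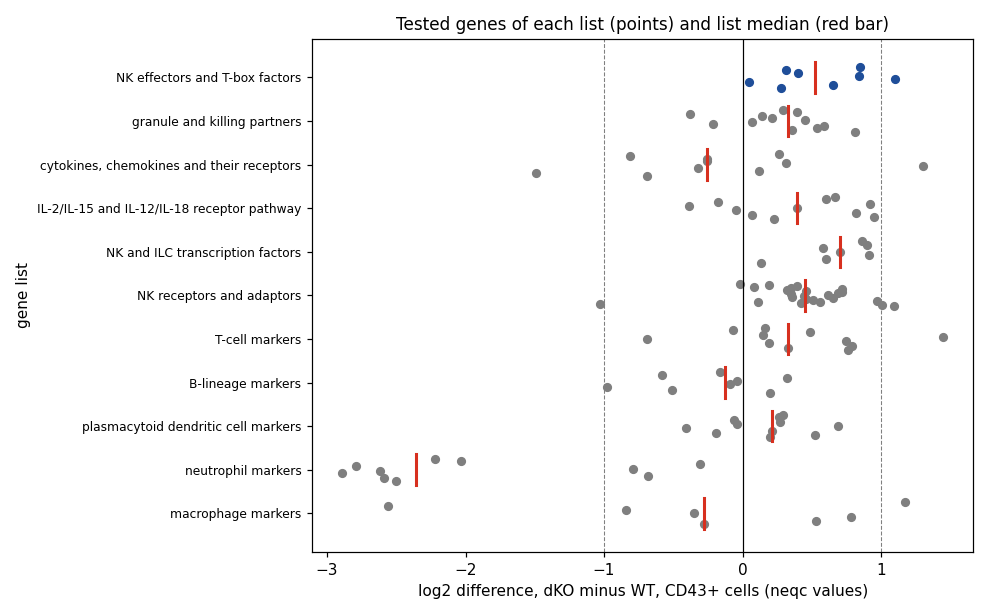
Log2 difference of normalized values, dKO minus WT, in CD43+ cells for each measurable gene of the NK effector and T-box set, of its pathway lists and of marker lists, with a red bar at each list's median and dashed lines at 2-fold. The 8 measurable NK effector and T-box genes lie above 0 with a median of 0.53, whereas all 10 neutrophil markers lie below 0. The 7 NK and ILC factors lie above 0 too, with a median of 0.70, but only 5 of them were detected in WT.

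The profiles over the 4 arrays of 8954 genes outside the set were compared with the median profile of the set. Predicted genes and clones without a gene name were then skipped. The 8 nearest of the rest were *Cd3g* (a T-cell receptor signalling chain), *Rnd3*, *Emb*, *Anxa2*, *Cdh1*, *Egfr*, *Il18r1* and *F2r*, at distances of 0.22 to 0.45 log2 units. Of the set itself, *Ctsw* and *Tbx21* lay nearest to that median profile, at 1.23 and 1.24, and *Prf1* farthest, at 3.38. The distance is Euclidean, over 4 arrays, of normalized log2 values centred on the mean of each gene.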

How the data were processed

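RNA of 4 sorted marrow samples was measured on Illumina MouseRef-8 arrays, 1 array a group, with groups taken from the sample titles. The signals were deposited as a GenomeStudio export without normalization, per the file headers, with a mean bead intensity, a bead SD and a bead number for each probe. Its detection score is, per the file headers, a fraction between 0 and 1, and 1 minus the score served as detection p. The authors also deposited RMA values on the log2 scale (per the file headers), and their series matrix was equal to these, within 1e-05, in 18119 of 18119 matched rows. Its column medians were 3.77 and 3.79 for dKO and 3.77 and 3.78 for WT (CD43- before CD43+), and its scale, centring and direction were taken from the RMA table. Settings of RMA were not given in the sources used here.

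Of the identifiers, 14300 matched a symbol and 2885 a synonym in a RefSeq table (GRCm38.p6), and 953 kept the file's name. Intensities were normalized by the neqc function of limma 3.58.1 under R 4.3.3 (a normexp offset of 16, which shrinks differences of dim genes, then quantiles). A gene was represented by its brightest probe, and genes with a detection p under 0.01 on at least 1 array of a comparison entered it. Differences between 2 arrays were counted at 2-fold without a test. Additive limma fits (lmFit, eBayes) gave Benjamini-Hochberg adjusted p-values. The fit was also run on simulated data with independent noise of equal size in every gene and no genotype effect. That simulation does not bear on genes whose fraction difference varies between the genotypes. The members, lists and motifs were chosen with earlier results of these data known. Beyond the members, the text names by rule the tested genes of each list with the largest differences, defining markers and the 8 nearest profiles of named genes. *Stat4*, *Il2rg*, *Ets1*, *Gzmd*, *Cd3e*, *Cd8a*, *Cd4*, *Lat* and *Il7r* were named after their values were seen. The alternatives were no background correction, an offset of 50, median scaling, the RMA table, the mean of probes, a detection p of 0.05 and detection on every array. The use of dimmer probes and of bounds was chosen after seeing the data. The number of arrays limits the precision.

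Some genes of the lists are not reported here by name.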

Additional observations from a re-analysis of the deposited data

Results flagged for a closer look

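The genotype difference, dKO minus WT, pointed one way in CD43+ and the other way in CD43- cells for *Nkg7*, *Ccl5* and *Ctsw*. *Nkg7* stood at 0.40 in CD43+ and -0.59 in CD43- cells, a gap of 0.99 on the log2 scale (bead SE 0.24). *Ccl5* stood at 0.65 in CD43+ and -0.25 in CD43- cells, a gap of 0.90 (bead SE 0.19). *Ctsw* stood at 0.05 in CD43+ and -0.08 in CD43- cells, a gap of 0.12, which is smaller than its bead SE of 0.25. The difference was not tested for any of the 3, since 1 array a group leaves no residual degrees of freedom, and their CD43- signals were close to background.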

How the results depend on the processing

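No paired analysis was possible because the labels give no replicate numbers and each group has 1 array, so the additive fits block by genotype or fraction, not by animal. In CD43+ cells, dKO against WT, 1 gene of the set was at least 2-fold higher, against 0 without background correction, 0 with an offset of 50, 3 with median scaling and 2 in the authors' RMA values. All 8 genes lay above 0 under every one of these settings, but median scaling also moved the all-gene median to 0.32, against 0.04 in the reported values, so its values, such as 0.78 for the median of the set and 0.35 for *Ctsw*, are to be read against 0.32. Of the genes at least 2-fold lower in CD43- than in CD43+ cells, 7 of 8 in dKO became 4 of 5 when detection on every array was asked for, and 7 of 8 in WT became 4 of 5 with that filter and 4 of 8 without background correction. The filter on every array leaves out *Il2rb*, *Tbx21* and *Eomes*, which accounts for the smaller counts. The median gap between the genotype differences of the fractions was 0.12, and 0.90 with the dimmer probes, which leave 3 genes. The median of dKO against WT in CD43- cells, -0.08, reversed to 0.09 with median scaling and to 0.16 at a detection p of 0.05. In the additive fraction fit, *Prf1* passed under 6 alternatives (limma adjusted p 0.00347 to 0.0306) and *Eomes* did not pass in the RMA values (-3.86, adjusted p = 0.0577). Over all genes, 2 were called higher and 0 lower in dKO, against 232 and 236 without background correction, 85 and 104 with an offset of 50, 222 and 255 with detection on every array, and 0 and 0 in the RMA values; the cause was not tested. The same fit called 1153 genes lower and 913 higher in CD43- cells, against 608 and 337 in the RMA values and 1452 and 1457 without background correction. All-gene counts past 2-fold in dKO against WT, higher and lower, were 150 and 173 in CD43+ and 290 and 206 in CD43- cells, against 400 and 118, and 472 and 93, with median scaling, 11 and 39, and 50 and 34, without background correction, and 381 and 354, and 388 and 328, in the RMA values. List medians of dKO against WT in CD43+ cells were smaller in size without background correction, with the same counts above 0. They were 0.27 in place of 0.45 for NK receptors and adaptors, and 0.18 in place of 0.33 for T-cell markers. The granule partners gave 0.22 in place of 0.33, the IL receptor list 0.17 in place of 0.39 and the cytokine list -0.08 in place of -0.26. Dim genes are limited by the signal over background, and 1 array a group limits every genotype value.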
